A study of Mus musculus with 2 samples.

Results

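Cytosolic ribosomal protein genes encode the proteins of the small (40S) and large (60S) ribosomal subunits. They were taken as the protein-coding genes whose symbol is Rpl or Rps followed by a digit, with Rplp0, Rplp1, Rplp2, Rpsa and Fau, and without S6 kinase genes and Gm symbols. This gave 93 genes of the 43346 Ensembl genes listed, and of 21461 nuclear protein-coding genes. Of the 93, 32 encode 40S proteins and 46 encode 60S proteins, and these 78 are called core genes below. The other 15 are paralogs, retrogene-like relatives and 2 genes, Rps19bp1 and Rpl7l1, whose products are not known as ribosome subunits.

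The samples were erythroblasts, which are red cell precursors that still hold a nucleus, taken as primary cells from male C57BL/6J mice aged 5 to 6 weeks, with no genetic change or treatment named. There is 1 group of 2 replicates, and total RNA was depleted of ribosomal RNA before sequencing from 100 ng per library. The replicates are separate biosamples that share 1 donor record, and some of their spread may be technical. Replicate 1 held 37312624 expected counts and replicate 2 held 22464724. No condition was contrasted with another, and no significance test was made.

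A ribosome takes 1 copy of nearly every ribosomal protein, and the acidic stalk proteins are the known exception. Many of these mRNAs begin with a tract of pyrimidines at the cap, the 5′ terminal oligopyrimidine (TOP) motif, through which growth signals acting by mTOR and LARP1 control their translation. Developing red cells make globin at a high rate, and in humans the loss of 1 working copy of any of several of these genes causes Diamond-Blackfan anaemia, a failure of red cell production. Their spliced mRNAs have also been copied back into the genome many times, which leaves processed pseudogenes with little or no difference in sequence.

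The start sites are shown because the tract is the sequence feature these genes are known to share. Each line gives 10 bases before and 20 bases from the annotated RefSeq start on GRCm38.p6, with the pyrimidine tract in capitals. Capitals begin at a C within 5 bases of the start, so C or T just before them can belong to the same run, as in Rpl35. The first 7 hold a tract, and Rpl5 and Rps16 do not hold one in this window. The genes shown are examples, and their split does not stand for the core genes. Of the core genes with a matched window, 48.3% held a tract, as given below.
Rps6, chr4:86857348-86857377, minus strand: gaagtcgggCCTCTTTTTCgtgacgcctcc
Rplp2, chr7:141447641-141447670, plus strand: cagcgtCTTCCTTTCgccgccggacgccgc
Rpl38, chr11:114668570-114668599, plus strand: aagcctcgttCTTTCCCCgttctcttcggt
Rpl35, chr2:39005112-39005141, minus strand: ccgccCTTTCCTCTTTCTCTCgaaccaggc
Rps18, chr17:33955646-33955675, minus strand: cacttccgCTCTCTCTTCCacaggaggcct
Fau, chr19:6057937-6057966, plus strand: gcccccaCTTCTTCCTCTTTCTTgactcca
Rpl27a, chr7:109519185-109519214, plus strand: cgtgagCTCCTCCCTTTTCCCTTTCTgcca
Rpl5, chr5:107900518-107900547, plus strand: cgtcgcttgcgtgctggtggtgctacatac
Rps16, chr7:28350679-28350708, plus strand: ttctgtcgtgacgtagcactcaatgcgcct

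A tract was counted as a C followed by at least 4 further C or T on the transcribed strand, beginning within 5 bases of the annotated start. RefSeq windows were matched for 58 of the 78 core genes, and 28 of them (48.3%) held such a tract. The share was 23.6% among 3421 other detected protein-coding genes and 21.2% among all 27025 genes of the table. A longer tract of at least 8 bases lay within 50 bases of the start in 49 of the 58 (84.5%), against 31.4% of the other detected genes. A gene with several annotated starts was scored by its longest tract.

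The coding sequences are shown where genes of the family share their letters with other rows of the tables. The first 60 coding bases of Rpl5, which binds 5S ribosomal RNA, and of the processed pseudogene Gm15500 were the same, as were all 891 coding bases. Rps6, the 40S protein phosphorylated by S6 kinases, was identical to Rps6-ps4 over 747 coding bases. Rps27 was identical to its intronless relative Rps27rt over 252 coding bases, whereas Rps27 and Rps27l shared 69.8% of bases. Rpl36a on the X chromosome and its autosomal relative Rpl36al shared 87.7% of 318 coding bases. In the last 4 lines, capitals mark the bases that differ within each pair.
Rpl5 (chr5:107900502-107909005) and Gm15500 (chr7:114705217-114706235): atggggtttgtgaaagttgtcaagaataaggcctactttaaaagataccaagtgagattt
Rps6 (chr4:86854660-86857412) and Rps6-ps4 (chr2:75191073-75191822): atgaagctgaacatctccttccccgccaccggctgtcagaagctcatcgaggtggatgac
Rps27 (chr3:90212522-90213651) and Rps27rt (chr9:114982366-114982739): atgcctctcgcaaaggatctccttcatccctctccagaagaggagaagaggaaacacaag
Rps27 beside Rps27l: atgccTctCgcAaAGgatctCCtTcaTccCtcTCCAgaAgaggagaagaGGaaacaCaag
Rps27l (chr9:66946086-66949516): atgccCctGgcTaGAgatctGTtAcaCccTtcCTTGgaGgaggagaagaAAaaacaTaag
Rpl36a (chrX:134585654-134588062) beside Rpl36al: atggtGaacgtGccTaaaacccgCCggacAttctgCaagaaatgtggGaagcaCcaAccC
Rpl36al (chr12:69182731-69184083): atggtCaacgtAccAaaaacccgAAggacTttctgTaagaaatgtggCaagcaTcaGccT

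All 78 core genes were detected, with a deposited TPM (a level per transcript length) of at least 1 in both libraries. Because nuclear protein-coding genes took 11.3% of deposited TPM in replicate 1 and 6.89% in replicate 2, levels are given as coding-scaled TPM, rescaled so that these genes sum to 1000000 in each library. The core genes held 2.89% of nuclear protein-coding TPM in replicate 1 and 3.38% in replicate 2, a mean of 3.13% ± 0.347 (SD, n = 2). Their share of nuclear protein-coding counts was 1.13% and 1.28%, and the part of transcript length in this lower share was not tested. Their annotated mean transcript length had a median of 713 bases, against 2163 bases for detected protein-coding genes. Their median level was 316 in replicate 1 and 381 in replicate 2, or 348 ± 46.4 coding-scaled TPM (SD, n = 2). The median core gene lay at percentile 97.2 of the 12895 nuclear protein-coding genes with a TPM above 0 in either library.

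Globin mRNAs, the main product of these cells, are part of that total. With globin genes left out of the total, the mean share of the core genes was 4.88% of TPM and 1.34% of counts.

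The median gene of the small subunit was at 293 coding-scaled TPM in replicate 1 and 355 in replicate 2, and that of the large subunit at 333 and 397. The ratio of the 40S to the 60S median was 0.880 in replicate 1 and 0.895 in replicate 2. The 40S levels ranged 7.36-fold, between 141 for Rps16 and 1036 for Rps3a1. The 60S levels ranged 101-fold, between 13.1 for Rpl27 and 1316 for Rplp2, and these 2 genes were also the extremes of the whole set. Across the 78 core genes the rank correlation of levels between the replicates was 0.827 as a description, and that of the mean level with annotated length was -0.139.

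**Figure D1:**
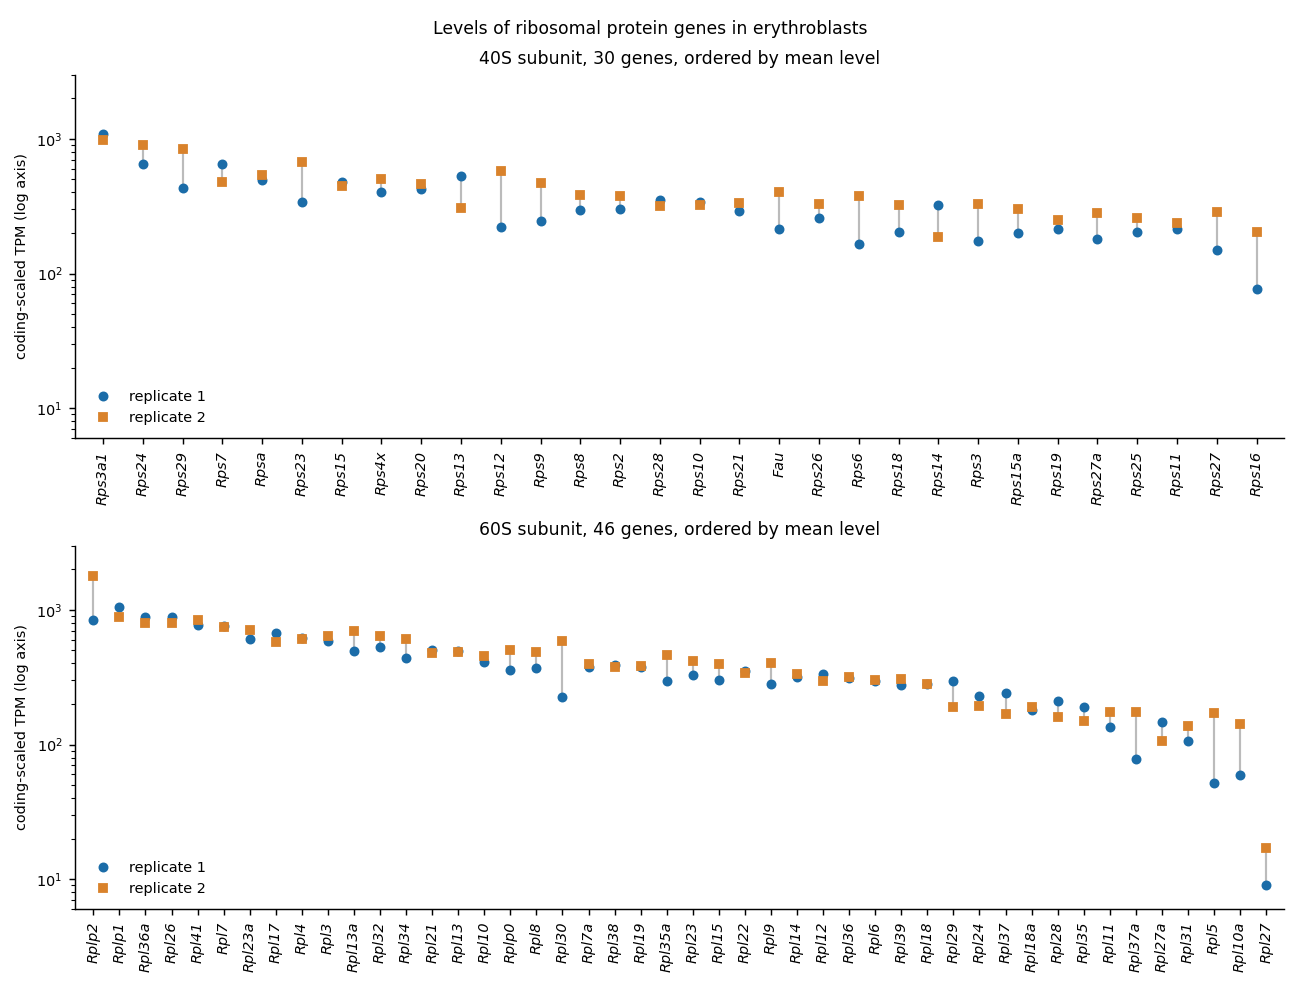
Coding-scaled TPM (log axis) of core genes in replicate 1 (circles) and replicate 2 (squares), for 30 genes of the 40S subunit and 46 genes of the 60S subunit, ordered by mean level. Rplp2 had the highest mean level (834 and 1798) and Rpl27 the lowest (9.06 and 17.1).

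The ribosomal stalk recruits elongation factors to the ribosome, and 2 of its 4 genes were among the 10 highest core genes. Rplp2 had 834 coding-scaled TPM in replicate 1 and 1798 in replicate 2, and Rplp1, its partner in the stalk dimers, had 1042 and 885. Rplp0, the base on which these dimers sit, had 357 and 502. Rpl12, a protein at the foot of the stalk, had 336 and 298, a mean of 317 and below the core median. Rplp2 therefore led the set in mean level but was lower than Rplp1 in replicate 1.

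The other 8 of the 10 highest core genes follow. Rps3a1, a 40S protein near the exit of the mRNA channel, had 1094 in replicate 1 and 977 in replicate 2. Rpl36a had 887 and 804, and Rpl26, which has a known role in p53 translation in human cells, had 880 and 800. Rpl41, the shortest ribosomal protein, had 771 and 842. Rps24 had 655 and 897, and Rpl7 had 761 and 750. Rpl23a had 605 and 712, and Rps29, a zinc finger protein of the 40S head, had 430 and 843. Of these, Rpl7 was the most even and Rps29 the least.

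The 10 lowest core genes were mostly 60S genes, with Rps16 as the exception. Rpl27 had 64.1 and 60.2 expected counts, or 9.06 and 17.1 coding-scaled TPM. Rpl10a, a protein of the L1 stalk, had 59.7 and 142, and Rpl5 had 52.2 and 172. Rpl31 had 106 and 137, Rpl27a had 147 and 106, and Rpl37a had 78.4 and 175. Rps16, a protein of the 40S head, had 77.3 in replicate 1 and 204 in replicate 2. Rpl11, which binds 5S ribosomal RNA together with Rpl5 and can inhibit Mdm2, had 135 and 173. Rpl35 had 191 and 149, and Rpl28 had 212 and 160.

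Many of these low levels stood beside counts assigned to pseudogenes of the same sequence. Copies were defined as annotated pseudogenes whose best match among core coding transcripts had at least 95% identity over at least 150 bases. The annotation held 589 of them, 427 had a row in the tables and 224 had counts, and 71 of the 78 core genes had at least 1 annotated copy. The copies held 46087 expected counts in replicate 1 and 22611 in replicate 2, which was 15.9% and 13.0% of the counts of core genes and copies together. No core gene passed the limit for shared reads used here, a posterior SD above 3 times the square root of the count, and the highest core value was 1.56 for Rps6, followed by 1.49 for Rps10 and 1.33 for Rpl24, all in replicate 1. Among the other 15 genes Rpl10-ps3 had 1.81 in replicate 1 and 1.77 in replicate 2. The limit thus flagged no gene, also none of those with an identical copy.

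Rpl27 was the extreme case: its copies held 97.6% of the counts of gene and copies in replicate 1 and 94.7% in replicate 2. Most of them lay in Rpl27-ps3 (chromosome 18), which matched Rpl27 at 100% over 411 bases and had 2569 and 1081 counts. For Rpl5 the share was 91.4% and 74.5%, and Rpl5 itself had 1216 and 1917 counts while Gm15500 had 12931 in replicate 1 and 5592 in replicate 2. Rps6 had 1709 and 2096 counts, while Rps6-ps4 had 7068 and 3243, so that copies held 80.6% and 60.8%. For Rpl31 the share was 53.8% and 62.4%. These were the 4 core genes with more than 50% of counts in copies in both libraries.

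In other genes the split differed between the replicates. The copies of Rpl10a held 57.9% in replicate 1 and 14.4% in replicate 2. Those of Rps23, a protein of the decoding centre, held 48.8% and 15.0%, with 2764 and 544 counts in Rps23-ps1. The copies of Rpl27a went the other way, with 31.9% and 51.6%. Those of Rpl39, an X-linked gene of the exit tunnel, held 48.2% and 27.1%. The copies of Rps28 held 2.63% in replicate 1 and 29.7% in replicate 2.

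Not all of the family was touched: 22 core genes had more than 10% of counts in copies in both libraries and 24 had less than 1% in both. Rplp2, Rpl36a, Rpl41 and Rps9 were among those with 0% in both.

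**Figure D2:**
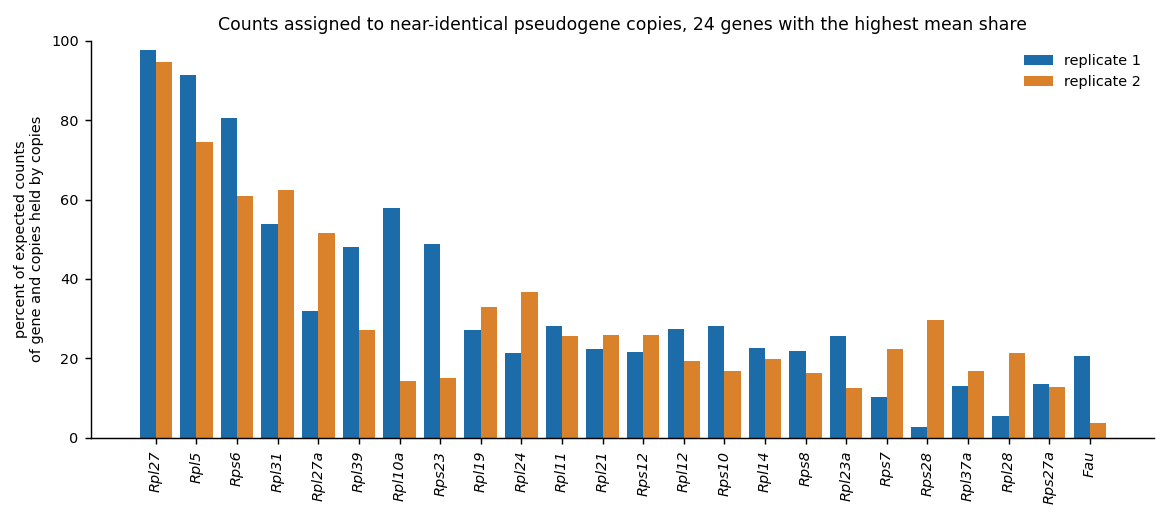
Percent of the expected counts of a gene and its near-identical pseudogene copies that was assigned to the copies, in replicate 1 (left bars) and replicate 2 (right bars), for the 24 core genes with the highest mean share. Rpl27, Rpl5, Rps6 and Rpl31 had more than 50% in both replicates, and Rpl10a (57.9% and 14.4%) and Rps23 (48.8% and 15.0%) differed between them.

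When the TPM of each gene was summed with that of its copies, the levels of the family became closer to each other. The SD of the log2 level across the 78 genes was 0.73 with copies and 0.95 without, and the highest level was 8.30-fold above the lowest with copies and 101-fold without. The 101-fold rests on Rpl27, since the next lowest gene, Rpl10a, was at 101 coding-scaled TPM. Rpl27 also raises the SD without copies, and the SD was not computed with that gene left out. The 90th percentile was 3.60-fold above the 10th with copies and 4.16-fold without. The median level was 397 in replicate 1 and 463 in replicate 2 with copies. Rpl5 with its copies had 1143 and 1007 coding-scaled TPM and ranked 3 of 78, against rank 76 alone. Rps6 moved to rank 4 (1000 and 1078) and Rps23 to rank 5 (1128 and 938). Rpl27 with its copies had 604 and 451 and ranked 29. The narrowing lay in the 60S genes, Rpl27 among them, whose SD was 0.72 with copies and 1.13 without. In the 40S genes it was 0.74 with copies and 0.63 without. The lowest gene was then Rps16, at 158. Whether these reads came from the parent genes was not tested.

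**Figure D3:**
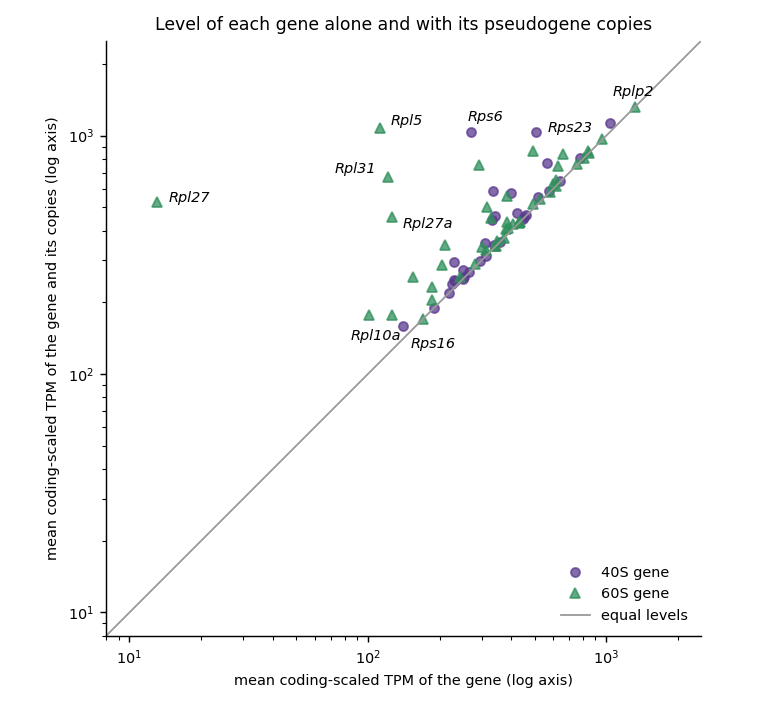
Mean coding-scaled TPM of each core gene alone (horizontal, log axis) and summed with its pseudogene copies (vertical, log axis), with 40S genes as circles, 60S genes as triangles and a line of equal levels. Rpl27, Rpl5, Rpl31 and Rps6 lie far above the line, and Rplp2 lies on it.

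The replicates were compared as a log2 ratio of replicate 1 over replicate 2, from counts scaled with TMM factors, with an exact Clopper-Pearson 95% interval that covers counting error only. Of the 93 genes, 84 had a mean count of at least 100, among them 77 core genes. Rpl27, Rps19bp1, Rpl9-ps6, Rpl36a-ps1 and 5 relatives at 0 counts did not reach it. The median of the 77 was -0.17, against 0.04 for 7658 nuclear protein-coding genes, and 50 of the 77 were below 0. The 40S genes had a median of -0.35 and the 60S genes of -0.10. Within 0.5 of their own median lay 53 of the 77 (68.8%), against 70.7% of nuclear protein-coding genes.

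At least 2-fold apart were 13 of the 84, among them 10 of the 77 core genes, beside a background of 8.54% of nuclear protein-coding genes and 10.5% of all Ensembl genes. All 10 core genes were lower in replicate 1, while 5.62% of nuclear protein-coding genes were 2-fold higher in replicate 1 and 2.93% were 2-fold lower (5.8% and 4.69% of all Ensembl genes). Rpl5 was the most different, at -1.53 (-1.64 to -1.43). Rps12, a protein of the beak of the 40S head, followed at -1.48 (-1.60 to -1.36). Rps27, with only 169 and 240 counts, was at -1.38 (-1.68 to -1.09), and Rps16 at -1.38 (-1.54 to -1.22). Rpl30 was at -1.32 (-1.42 to -1.21). The remaining 5 were Rpl37a (-1.19), Rplp2 (-1.18), Rps6 (-1.17), Rpl10a (-1.17) and Rps29 (-1.13).

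In the other direction no core gene was 2-fold apart. The largest values were 0.75 for Rps13, 0.61 for Rpl29, 0.55 for Rpl37, 0.53 for Rps14, which lies in the chromosome segment deleted in the 5q- syndrome of humans, and 0.49 for Rpl35. Rps13 had 533 coding-scaled TPM in replicate 1 and 309 in replicate 2.

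With copies summed, 7 of the 77 core genes were 2-fold apart, beside 8.54% of nuclear protein-coding genes in either direction. Rpl5 was then at 0.04 (-0.01 to 0.08), Rps6 at -0.16 and Rpl10a at -0.15, and Rps23 was at -0.25 with its copies and at -0.98 alone. The 7 were Rps12, Rps16, Rps27, Rpl37a, Rpl30, Rplp2 and Rps29, all lower in replicate 1. In that direction the share of nuclear protein-coding genes was 2.93%, and those genes were not summed with copies. For 2 of these, Rps27 and Rps12, the gene was also summed with a relative among the other 15 genes, without pseudogene copies. Rps27 and Rps27rt together had 1013 counts in replicate 1 and 658 in replicate 2, and their ratio was -0.26 (-0.40 to -0.11). Rps12, at -1.56 with its copies, was at -0.56 (-0.65 to -0.47) together with Rps12-ps3, and Rps12-ps3 was itself higher in replicate 1 (1.18, 0.99 to 1.36). Rplp2, Rps29 and Rps27 had under 1% of their counts in copies.

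**Figure D4:**
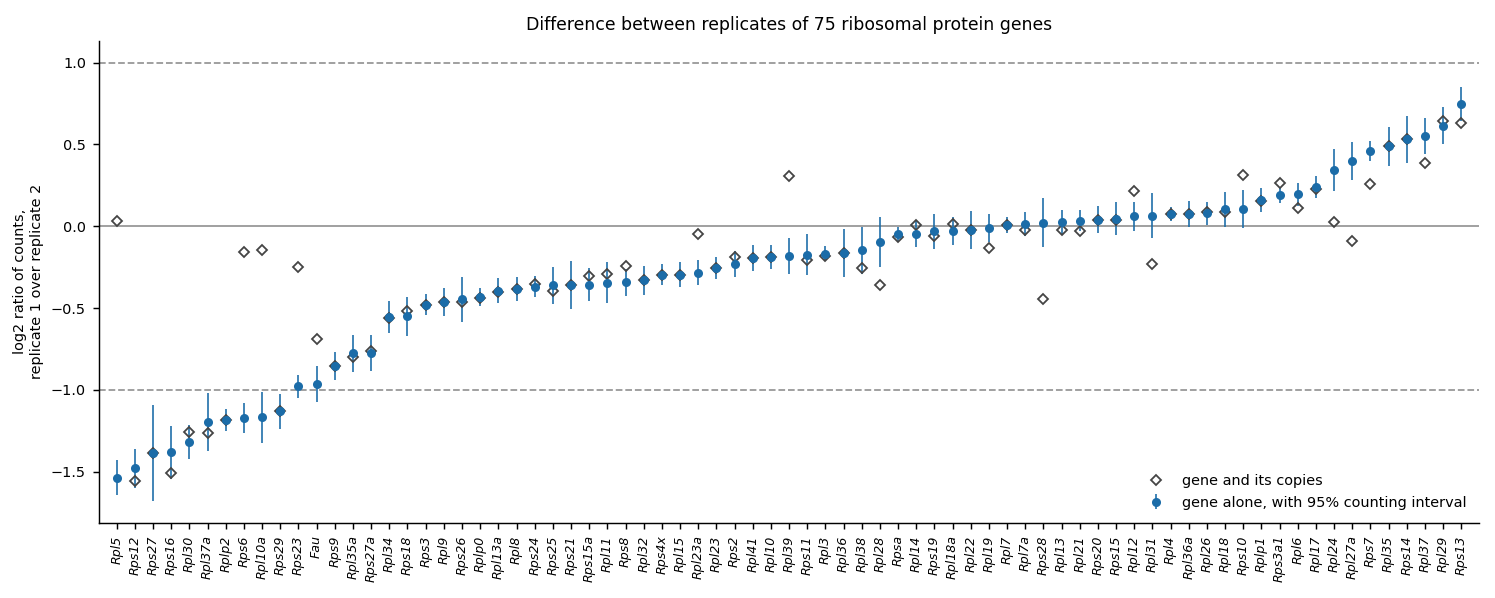
Log2 ratio of TMM-scaled counts, replicate 1 over replicate 2, of 75 core genes in ascending order (filled circles, with 95% counting intervals) and of the same genes summed with their pseudogene copies (open diamonds); dashed lines mark 2-fold. Rpl5, Rps6, Rpl10a and Rps23 lie near or beyond -1 alone and between -0.25 and 0.04 with their copies.

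The 15 genes outside the core were mostly low. Rps27rt was the highest, at 307 coding-scaled TPM in replicate 1 and 246 in replicate 2, and held 67.0% and 46.3% of the TPM of itself and Rps27. The annotated Rps27 model is 255 bases long, with an effective length of 73.7 bases in replicate 1 and 108 bases in replicate 2, so its level per length rests on few usable positions. Rps12-ps3 had 265 and 111, which was 54.6% and 16.1% of its TPM with Rps12. Rpl36al had 190 and 178, an even 17.7% and 18.1% of its TPM with Rpl36a.

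Rpl22l1, a paralog of Rpl22 that can replace it in the ribosome, had 238 and 340 counts and a log2 ratio of -1.39 (-1.64 to -1.15). It held 7.97% of the TPM of the pair in replicate 1 and 17.3% in replicate 2. Rps27l, a paralog induced by p53, had 111 and 134 counts and a log2 ratio of -1.15 (-1.53 to -0.78). Rpl7l1, a protein of 60S assembly, had 741 and 566 counts. Rpl10-ps3 had 200 and 119 counts, Rpl9-ps6 had 91.3 and 67.7, and Rps19bp1, a regulator of SIRT1, had 105 and 28. Rpl36a-ps1 had 4.56 and 2.30 counts.

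At 0 counts in both libraries were 5 relatives, namely Rpl3l, Rpl10l, Rpl39l, Rpl9-ps1 and Rpl36-ps4. A count of 0 allows up to 3 counts, or 0.0804 CPM in replicate 1 and 0.134 CPM in replicate 2. Rpl3l is known from heart and skeletal muscle, and Rpl10l and Rpl39l from testis.

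Rpl5 and Rpl11 form the 5S particle, and Rps27a and Fau are core genes made as fusion proteins. Rpl11 with its copies had 233 and 278 coding-scaled TPM, well below Rpl5 with its copies. Rps27a, made as a fusion with ubiquitin, had 179 and 281 coding-scaled TPM and a log2 ratio of -0.77 (-0.88 to -0.66). Fau, made as a fusion with a ubiquitin-like protein, had 214 and 406.

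Of the genes of Diamond-Blackfan anaemia in humans, 19 were core genes, and all 19 were detected. Their median level was 282 and 316 coding-scaled TPM, a mean of 299 ± 24.0, against 364 ± 47.2 for the other 59 core genes (SD, n = 2). With copies summed the medians were 424 ± 37.4 and 430 ± 48.4. Rps19, the gene most often affected, had 215 and 248 coding-scaled TPM and a log2 ratio of -0.03 (-0.14 to 0.08). Rps26 had 260 and 329, and Rps7 had 650 and 480. Rpl35a had 297 and 464, Rps10 had 340 and 325, and Rpl15 had 300 and 396.

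Others of these genes lay in the middle of the range. Rps15a had 199 and 300, Rpl18 had 282 and 280, and Rps28 had 353 and 316. Rpl26, Rps24 and Rps29 at the high end and Rpl5, Rpl11, Rpl27, Rpl31, Rpl35 and Rps27 lower down were given above.

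Transcripts of a protein-coding type held 92.9% of core TPM in replicate 1 and 90.7% in replicate 2. Retained introns held 3.31% and 4.25%, and transcripts annotated for nonsense-mediated decay 1.35% and 1.05%. In 57 of 78 genes more than 90% was coding in both libraries. In 74 genes the leading transcript of each library held more than 50% of gene TPM in that library. It was not the same transcript in both libraries in 6 of the 78 core genes.

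In 3 genes transcripts matched to a coding type held under 50% in both, and in 1 of them, Rpl13a, the type of most of the TPM is not known here. The leading transcript of Rps20, 582 bases long, is annotated as a retained intron and held 96.2% and 90.7% of gene TPM, while the coding transcript of 3706 bases held 3.8% and 2.0%. The leading transcript of Rpl12, 729 bases long, is annotated for nonsense-mediated decay and held 88.6% and 82.5%. That of Rpl13a, 464 bases long, had no match in the annotation release used here and held 71.8% and 77.8%. Rpl5 had a retained intron share of 27.9% and 41.6% of the TPM assigned to Rpl5 alone. Rpl5 had 1216 and 1917 counts, while its identical copy Gm15500 had 12931 and 5592. With the TPM of Gm15500 in the total, the share would be lower.

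Rps18 and Rps3 changed their split between the replicates. The coding share of Rps18 was 76.3% in replicate 1 and 33.0% in replicate 2, where a processed transcript of 536 bases held 64.0%. The 1908-base transcript of Rps3 held 97.7% and 47.3%, and in replicate 2 a second coding transcript of 952 bases held 46.8%. Rps24 is known for alternative short last exons, and its transcripts of 837 and 468 bases held 56.1% and 43.9% in replicate 1, and 46.5% and 53.5% in replicate 2.

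Introns of ribosomal protein genes often carry small nucleolar RNAs, which guide the modification of ribosomal RNA. The core genes held 58 annotated snoRNA genes in 30 hosts. Of these, 26 were at 0 in both libraries, all between 65 and 95 bases long. Of the 17 with a mean count of at least 100, 15 were 2-fold or more lower in replicate 1, beside 4.69% of all Ensembl genes, with a median log2 ratio of -3.02 against -0.29 for their 14 hosts. Snora33 in Rps12 had 2058 counts in replicate 1 and 14954 in replicate 2, and Snord15b in Rps3 had 2297 and 8943. The 17 were at least 94 bases long, and the labelled sizes ran between 200 and 764 in replicate 1 and between 138 and 1000 in replicate 2, with no unit. The part of this size range in the difference was not tested.

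The median level of the core genes was above that of each of the 8 lists that follow. The 77 mitochondrial ribosomal protein genes had a median of 13.5 ± 0.0754 coding-scaled TPM (SD, n = 2), against 348 ± 46.4 for the cytosolic ones. Of the 77, 29 were detected, while 51 had a mean count of at least 100 and none was at 0 in both libraries. Detection is set on deposited TPM, of which nuclear protein-coding genes held a small part, so some genes below it had many counts. Proteasome subunits had a median of 49.8 ± 3.66 (35 of 39 detected), translation initiation factors of 33.3 ± 4.61 (40 of 55 detected) and nuclear oxidative phosphorylation subunits of 43.7 ± 9.04 (65 of 84 detected). The highest of the initiation list were Eif5 (961 and 1125), Eif2ak1, the heme-regulated kinase (873 and 785), and Eif4g2 (364 and 601).

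Among 12 elongation and termination factors, the median was 98.2 ± 19.5 and 10 were detected. Eef1a1, which delivers aminoacyl-tRNA, had 1857 and 1598, above every core gene in replicate 1 and below Rplp2 in replicate 2; Eef1b2 had 403 and 579 and Eef1d had 366 and 398. Of 32 ribosome biogenesis factors 16 were detected and 30 had a mean count of at least 100, with a median level of 14.1 ± 0.416. Their highest were Npm1, which chaperones nucleolar assembly (499 and 538), Ubtf, a factor of RNA polymerase I (126 and 273), and Nop58 of the box C/D snoRNP (121 and 121).

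Other mRNAs known to carry a TOP motif, 16 genes, had a median of 272 ± 14.2, and all 16 were detected. Pabpc1, the poly(A) binding protein, led them with 4694 in replicate 1 and 7620 in replicate 2, followed by Eef1a1 and Tpt1 (582 and 963). The 10 regulators of TOP translation had a median of 18.2 ± 0.352, and 7 were detected, though all 10 had a mean count of at least 100. Tial1 had 46.7 and 84.0, Eif4e averaged 27.3 ± 3.91, and Eif4ebp1 had 29.1 and 23.3.

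**Figure D5:**
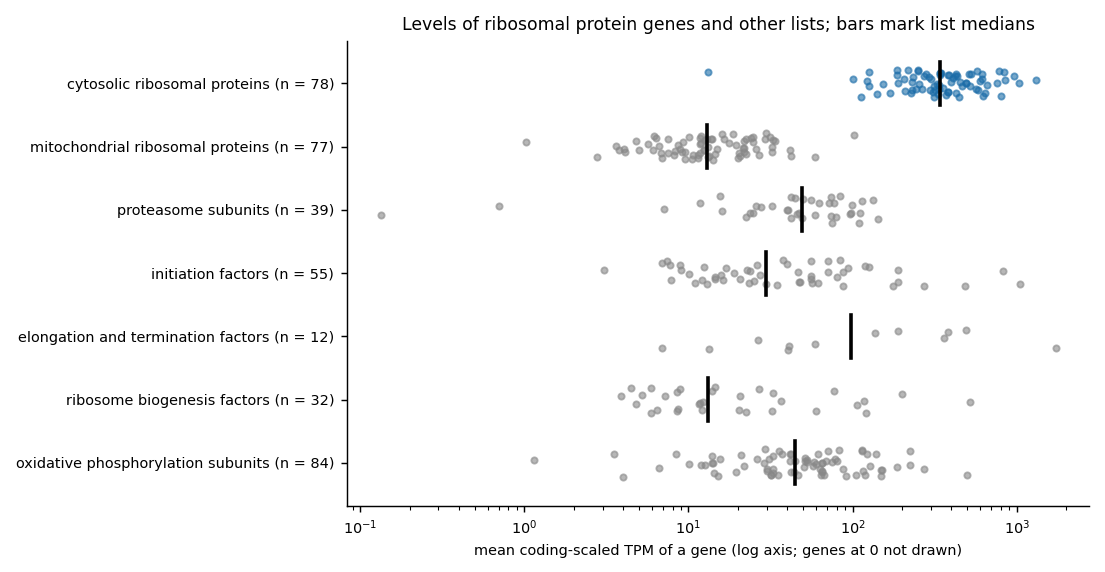
Mean coding-scaled TPM of each gene (log axis, genes at 0 not drawn) for the core cytosolic ribosomal protein genes at the top and 6 other lists; vertical bars mark the median of the gene means in each list. Apart from Rpl27 (13.1), the lowest core gene was Rpl10a (101), beside 102 for Mrps21, the highest mitochondrial ribosomal protein gene.

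The label was checked against markers. All 11 erythroid markers were detected, with a summed level of 405090 coding-scaled TPM in replicate 1 and 347114 in replicate 2. All 8 neutrophil markers were detected too, with sums of 19790 and 19435, and 5 of 6 macrophage markers, with sums of 174 and 150. Megakaryocyte markers were detected in 2 of 6 (sums of 120 and 144), and B cell and T cell markers in 0 of 6 and 0 of 5. Pax5 was at 0 in both. How much of the ribosomal protein signal came from such other cells was not tested, and in bulk RNA fewer cells of a type and less RNA per cell cannot be told apart.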

How the data were processed

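Total RNA-seq tables of 2 erythroblast libraries were used, 1 table per gene and 1 per transcript for each library. Expected counts (estimated, not always whole) are given per the file headers, with posterior means and standard deviations. Deposited TPM is given per the file headers too, and the transcript tables add each transcript's percent of its gene's TPM, as deposited. Per the deposited text records, the assembly was mm10 with GENCODE release M4. Which aligner and quantifier made the tables is not given in the sources used here. Of 43346 Ensembl genes, 42462 matched GENCODE M21, which gave symbols, types and coordinates on the same assembly. Rows without an Ensembl gene (8 and 28 counts) were left out.

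TPM was rescaled to 1000000 over 21461 nuclear protein-coding genes, and TPM of a gene's copies was divided by the same total. Effective lengths were shorter than full lengths by a median of 190 (replicate 1) and 152 (replicate 2) bases. Expected counts were rounded and scaled with TMM factors (edgeR 4.0.16, R 4.3.3). Ratios were computed at a mean count of at least 100. DESeq2 1.42.0 size factors were an alternative. Pseudogene copies were found with blastn 2.17.0 (plus strand, E-value limit 1e-10), and a pseudogene was assigned to its best-matching core gene. This definition was made after the values were seen. Start windows came from RefSeq. The computation of the ratios was checked on simulated counts with known changes. Tables were computed with pandas 2.3.3, numpy 2.4.6 and scipy 1.17.1 in Python 3.11.15, and figures drawn with matplotlib 3.10.9.

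With 1 library on each side, no p-value is given. Intervals and floors cover counting error only, since reads without molecular identifiers are not independent molecules. Genes and lists were chosen with earlier results of these data known. Named are the 10 highest and 10 lowest core genes, the genes outside the core, the stalk, 5S, Diamond-Blackfan and fusion genes, the 5 largest ratios in each direction, the 10 genes with the highest posterior SD relative to the square root of the count (Rpl10-ps3, Rps6, Rps10, Rpl24, Rpl10a, Rpl9-ps6, Rps12-ps3, Rps12, Rpl5 and Fau), and the 3 highest of other translation lists. A few genes that the rule names are not reported here, nor drawn by name, but are kept in counts and medians. Genes named for their copies or transcripts were chosen after their values were seen.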

Additional observations from a re-analysis of the deposited data

How the results depend on the processing

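The share of nuclear protein-coding TPM in core genes was between 2.89% and 3.38% when a replicate was left out, and the share of counts between 1.13% and 1.28%. Without globin genes in the total the shares were 4.88% and 1.34%. The ratio of the 40S to the 60S median was 0.821 with full in place of effective length, and between 0.880 and 0.895 without 1 replicate. With copies summed, the 40S median was 320 coding-scaled TPM in replicate 1 and 410 in replicate 2. The 60S median with copies was 403 and 494, so the 40S median stayed the lower in both. The SD of log2 levels was between 0.94 and 1.07 without 1 replicate. With copies summed it was 0.73 at identity limits of 90%, 95% and 98%, and the median level was 430.

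The median log2 ratio of core genes was -0.026 with library size alone and turned to 0.55 with deposited TPM. The median of all nuclear protein-coding genes shifted as well, by 0.15 and 0.64. Relative to it the core median was -0.21 with library size and with TMM, and -0.13 with deposited TPM. Library size and TMM differ by the same constant for every gene, so their equal values are fixed by arithmetic. By deposited TPM 9 core genes were 2-fold higher and 1 lower in replicate 1, and 29.6% of all nuclear protein-coding genes were 2-fold apart. With the minimum mean count raised to 1000, 65 core genes were left and 6 were 2-fold apart, against 10 of 77 with the lower minimum. Whether core genes with low counts were more often 2-fold apart was not tested. The number of core genes 2-fold apart was otherwise between 7 (copies summed, at each identity limit) and 11. No gene passed the limit for shared reads, so leaving such genes out changed nothing. The limit did not flag Rpl5, Rps6 or Rpl27, which have identical copies. This setting therefore cannot show whether shared reads affect the results.

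No paired analysis was possible because there is 1 group. A ratio of 2 libraries has no value without either of them. Counts of 64.1 and 60.2 limit Rpl27, and the short model of Rps27 limits its level.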
